A study of Mus musculus with 9 samples.

Results

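The genes described here make the enzymes and regulators that hold peroxides, superoxide and other reactive molecules in check: 42 genes of the glutathione, thioredoxin and peroxiredoxin systems and of the NRF2 response. They form a list of names, drawn up with earlier results of these data known, and all 42 were found among the 47729 genes of the table, passed the filter on low values and were tested. RNA sequencing of 9 libraries covered cultured synovial fibroblasts, which build the lining tissue of joints. Monosodium urate (MSU) crystals, which cause gout, had been injected into paws of wild-type BALB/c mice. Primed cultures (3 libraries) stem from left paws that received crystals on days 0 and 9. Non-primed cultures (3 libraries) stem from right paws that received them on day 9 alone, and naive cultures (3 libraries) from paws never injected. All groups were labelled day 18, and cells were cultured for 5 passages. No source used here gives the age or sex of the mice. Primed and non-primed cultures need not come from different mice, and paw side and priming cannot be told apart. No label ties a library to a mouse, so p-values reflect library-to-library spread alone, which may be partly technical.

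NRF2, encoded by Nfe2l2, is a transcription factor that KEAP1 binds and marks for degradation under resting conditions. Oxidants and reactive compounds modify KEAP1, NRF2 then accumulates, and it switches on genes that carry the antioxidant response element in their regulatory regions. Its known targets make glutathione, reduce thioredoxin, break down heme and attach glutathione to reactive compounds. In inflamed joints these enzymes counter the oxidants released by activated phagocytes.

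Values are rlog values, a log2 expression scale on which the authors corrected for library depth. Levels of different genes cannot be compared on it because it is not corrected for gene length. The read depth of each library is unknown. Differences (primed minus non-primed, primed minus naive, non-primed minus naive) come from limma with their standard error (SE), and a gene passed at a Benjamini-Hochberg adjusted p below 0.05 over 15623 genes. A single spread per gene was fitted over all 3 groups, so SE and p between primed and non-primed cultures also include the naive spread. Among the 10 fibroblast markers, Vim stood at 15.36 to 16.05 and Col1a2 at 15.00 to 16.05 over the 9 libraries, and the lowest value of any of the 10 was 8.34, of Prg4. All 10 were present in every library, as the label of the cells requires. The naive libraries spread the most, with a median SD of 0.22 over all tested genes, against 0.14 in primed and 0.10 in non-primed libraries. Macrophage markers were also present in these cultures and lowest in naive 1 and naive 3. Since the samples are bulk RNA, fewer cells of a type and less RNA per cell cannot be told apart.

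The core of the antioxidant response element, TGACNNNGC on either strand, was looked for in RefSeq promoter windows of 250 bases before to 50 bases after the start site (GRCm38.p6). It was found in 8 of the 34 genes with a window (23.5%), and in 14% of the 27025 genes with a window overall. Abcc1, Gclc, Gsr, Gsta4, Gstt2, Hmox1, Prdx6 and Sod3 had no window and were not searched. The 8 stretches are shown because NRF2 binds elements with this core, written 5′ to 3′ on the gene's strand with the motif in capitals; where the capitals end in GTCA the motif lies on the opposite strand.
Nfe2l2: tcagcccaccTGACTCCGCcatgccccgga
Gclm: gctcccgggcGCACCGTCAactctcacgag
Prdx1: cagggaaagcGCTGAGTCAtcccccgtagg
Srxn1: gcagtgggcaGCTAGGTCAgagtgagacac
Txnrd1: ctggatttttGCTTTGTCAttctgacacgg
Sod1: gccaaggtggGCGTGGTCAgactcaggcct
Gstm5: caccgcccacTGACCACGCggagggcgggt
Mgst1: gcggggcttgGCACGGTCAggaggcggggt
The Prdx1 stretch (chr4:116685456-116685485, plus strand gene) reads the motif on the opposite strand, 133 bases before the start site, and the Nfe2l2 stretch (chr2:75704884-75704913, minus strand gene) reads it on the gene's strand, 240 bases before. The Sod1 stretch lies at chr16:90220696-90220725 and the Srxn1 stretch at chr2:152105542-152105571; the Srxn1 motif lies 28 bases after the start site. The Txnrd1 match lies in the window at chr10:82858956-82859255, and the other windows of that gene held no match. A match describes letters in the promoter window only, and elements further away are outside it.

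Most antioxidant transcripts stood slightly higher in cultures from primed paws than in cultures from non-primed paws, by amounts that did not pass the test in any single gene. The level was higher in primed cultures for 37 of the 42 genes (88.1%), where 50.3% of all tested genes were higher. The median difference of the 42 genes was 0.14, against a median of 0.00 over all tested genes. In 16 of the 42 (38.1%) all 3 primed libraries lay above all 3 non-primed libraries, and in 0 did they lie below, where over all genes 6.31% lay above and 5.25% below. No single gene passed: 0 of 42 in limma, beside 0% of all tested genes, with every adjusted p at 0.9999. At an unadjusted p below 0.05 stood 6 of the 42 (14.3%), all higher in primed cultures, where 1.26% of all genes reached that level, 0.57% higher and 0.691% lower. These p-values depend on the naive spread: 197 of all genes reached that level, against 744 with only the 2 groups fitted. Because 39 of the 42 are well expressed, with a mean rlog of at least 9, the 7354 genes at that level give a closer background. Of these, 51% were higher in primed cultures and 7.91% lay above without overlap. The same shares are the background for the counts of role groups below. Several genes of the clusters below lie under that level, so the shares over all tested genes, 50.3% and 6.31%, apply there.

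**Figure D1:**
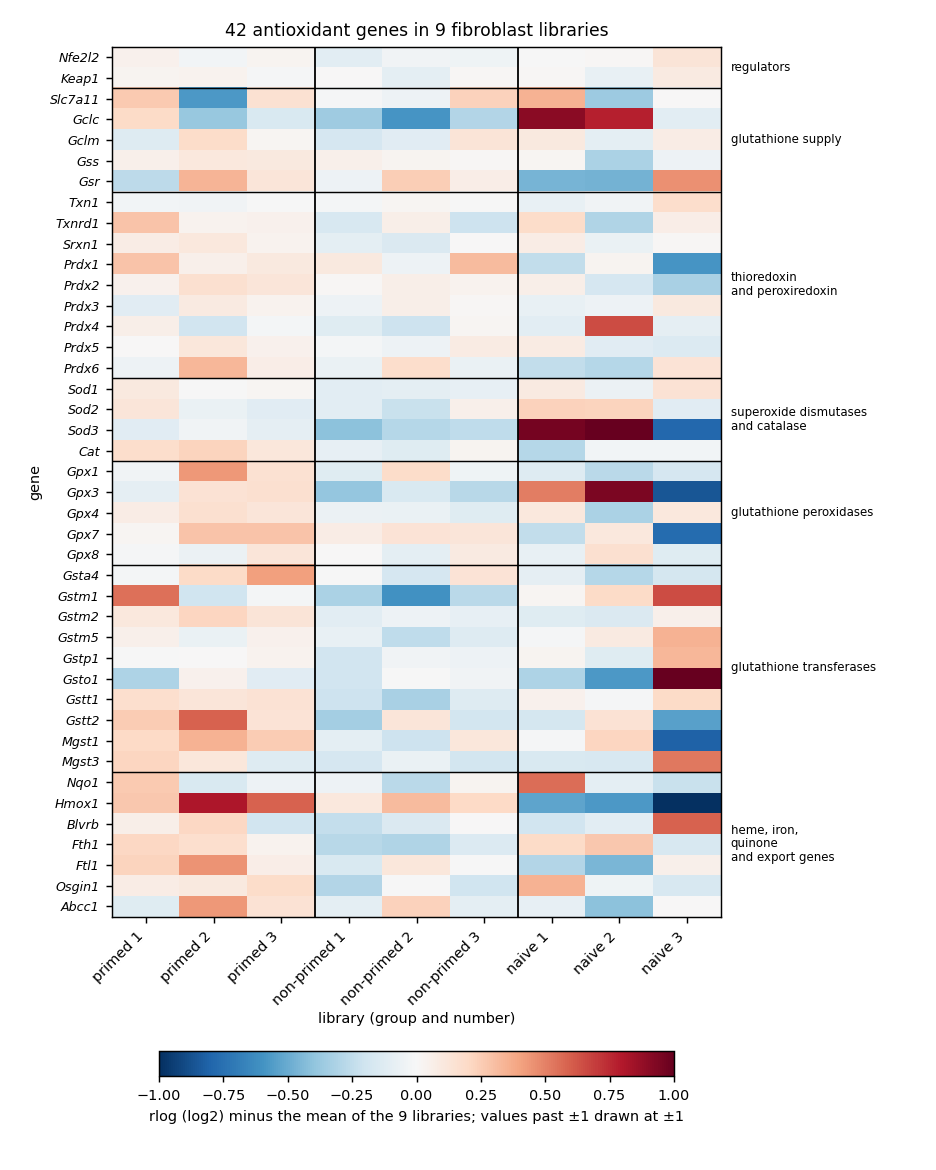
Each row is a gene, grouped by role, and each column a library, with the primed libraries left, non-primed in the middle and naive right. Colour gives the rlog value minus the mean of that gene over the 9 libraries, on a log2 scale limited to 1 either side. Primed columns are mostly warm and non-primed columns mostly cool, and naive 3 differs from naive 1 and naive 2 in many rows.

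Glutathione transferases, which couple glutathione to reactive lipids and foreign compounds, made up the largest role group. Of its 10 genes, 9 were higher in primed cultures, 7 without overlap, and 4 had an unadjusted p below 0.05. Their mean level was 10.65, 10.66 and 10.62 in the primed libraries, against 10.36, 10.37 and 10.44 in the non-primed libraries, without overlap. The naive libraries stood at 10.45, 10.46 and 10.73, so naive 3 lay above every primed library.

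Gstt1, a theta-class transferase (ENSMUSG00000001663, GRCm38 chromosome 10, 75783813 to 75798584, minus strand), had the smallest p of the 42. It stood at 10.73, 10.69 and 10.71 in the primed libraries, 10.35, 10.24 and 10.43 in the non-primed libraries and 10.61, 10.55 and 10.76 in the naive libraries. The primed values lie close together and inside the naive range, and the non-primed values lie below both groups. The difference was 0.37 (SE 0.08), with an unadjusted p of 0.00159 and an adjusted p of 0.9999 in limma. Its theta-class neighbour Gstt2 (ENSMUSG00000033318, GRCm38 chromosome 10, 75831114 to 75837424, minus strand) stood at 8.84, 9.17 and 8.72 in the primed libraries, 8.24, 8.70 and 8.40 in the non-primed libraries and 8.40, 8.72 and 8.04 in the naive libraries. Every primed value lay above every non-primed one, primed 3 barely so, and the difference was 0.46 (SE 0.20).

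Gstm1, a mu-class transferase (ENSMUSG00000058135, GRCm38 chromosome 3, 108012255 to 108017973, minus strand), stood at 11.03, 10.27 and 10.46 in the primed libraries, 10.16, 9.87 and 10.20 in the non-primed libraries and 10.49, 10.66 and 11.13 in the naive libraries. The primed and non-primed groups did not overlap, primed 1 being far above the other primed libraries, and the difference was 0.51 (SE 0.22). Gstm2 (ENSMUSG00000040562, GRCm38 chromosome 3, 107981702 to 107986453, minus strand) stood at 10.72, 10.83 and 10.74 in the primed libraries, 10.51, 10.57 and 10.53 in the non-primed libraries and 10.50, 10.48 and 10.67 in the naive libraries. All primed values exceeded all 6 others, and the difference from non-primed cultures was 0.23 (SE 0.08), with an unadjusted p of 0.0141. Gstm5 stood at 11.26, 11.15 and 11.25 in the primed libraries, 11.14, 10.96 and 11.08 in the non-primed libraries and 11.20, 11.30 and 11.56 in the naive libraries, again without overlap between primed and non-primed, at a difference of 0.16 (SE 0.10).

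Several of these genes are neighbours in the genome. The mu-class genes form a cluster on chromosome 3 that spans 149.1 kb, and all 6 that were tested were higher in primed cultures, 5 without overlap. The theta-class genes lie within 63.3 kb on chromosome 10, and all 3 that were tested were higher without overlap. Of these 9 genes, 4 come from the list of other pathway genes: Gstm6 at 0.50 (SE 0.18), Gstm4 at 0.26 (SE 0.13), Gstm7 at 0.26 (SE 0.32) and Gstt3 at 0.26 (SE 0.09). Close copies can share reads, so how the signal splits among the genes of a cluster is uncertain.

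Among the remaining transferases, Gsta4, which clears the lipid peroxidation product 4-hydroxynonenal, stood at 12.19, 12.40 and 12.62 in the primed libraries, 12.21, 12.04 and 12.35 in the non-primed libraries and 12.12, 11.92 and 12.03 in the naive libraries. Its groups overlapped between primed and non-primed, at a difference of 0.20 (SE 0.12). The microsomal transferase Mgst1 differed by 0.33 (SE 0.23) and Gstp1 by 0.10 (SE 0.11), both without overlap. Mgst3 differed by 0.21 (SE 0.18) with overlap, and Gsto1, an omega-class enzyme, was at -0.05 (SE 0.45), the only transferase of the 10 that was not higher.

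**Figure D2:**
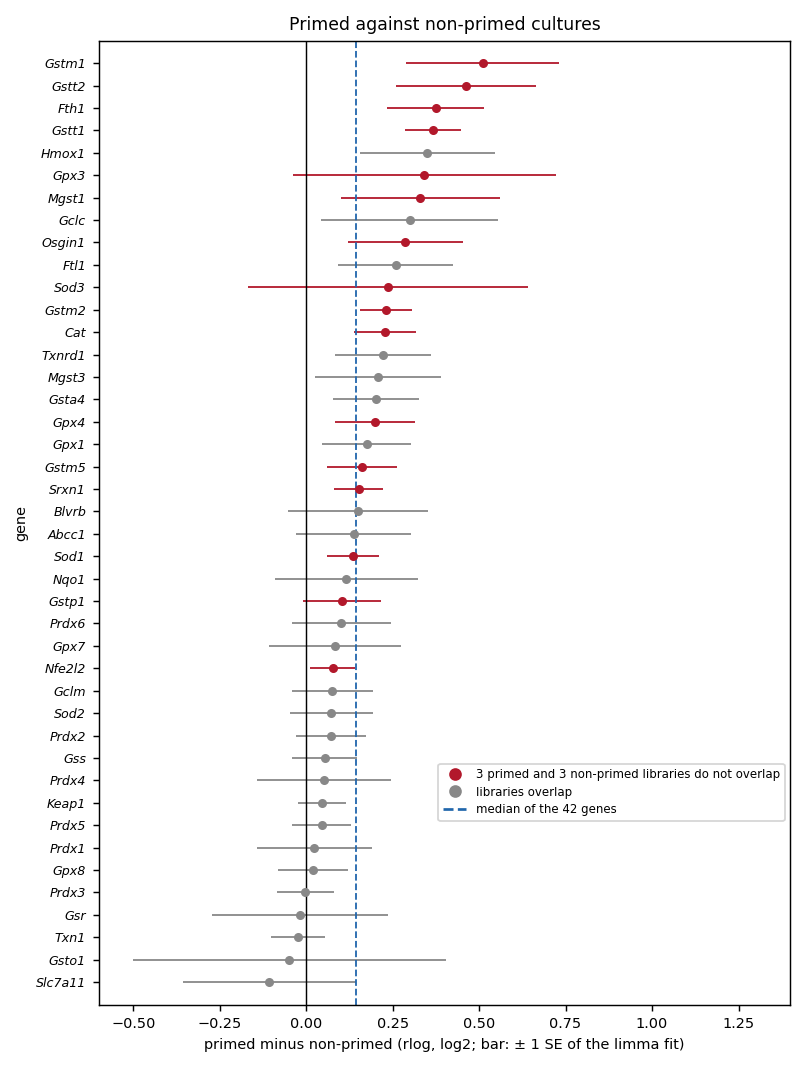
Points give the difference primed minus non-primed on the log2 rlog scale for each of the 42 genes, with bars of 1 SE of the limma fit. Red points mark the 16 genes whose 3 primed libraries lie above all 3 non-primed libraries, and the dashed line marks the median of 0.14. Gstm1 has the highest difference, 0.51, and Slc7a11 the lowest, -0.11.

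Iron storage and heme breakdown genes were also higher in primed cultures. All 7 genes of the heme, iron, quinone and export group were higher, 2 of them without overlap. Fth1, the heavy chain of ferritin (ENSMUSG00000024661, GRCm38 chromosome 19, 9980598 to 9985098, plus strand), stood at 15.08, 15.04 and 14.92 in the primed libraries, 14.60, 14.57 and 14.74 in the non-primed libraries and 15.07, 15.15 and 14.72 in the naive libraries. The primed libraries lay above the non-primed ones and within the naive range, at a difference of 0.37 (SE 0.14) and an unadjusted p of 0.0267. Ftl1, the ferritin light chain, stood at 15.12, 15.34 and 14.96 in the primed libraries, 14.75, 15.01 and 14.89 in the non-primed libraries and 14.60, 14.44 and 14.95 in the naive libraries. Its primed and non-primed values overlapped through primed 3, at a difference of 0.26 (SE 0.17).

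Hmox1, heme oxygenase 1, which opens the heme ring and frees its iron (ENSMUSG00000005413, GRCm38 chromosome 8, 75093621 to 75100589, plus strand), stood at 13.60, 14.14 and 13.91 in the primed libraries, 13.43, 13.64 and 13.53 in the non-primed libraries and 12.80, 12.75 and 12.15 in the naive libraries. Primed 1 lay below non-primed 2, so the injected groups overlapped, and the difference was 0.35 (SE 0.19). Osgin1, an NRF2 target that restrains growth, differed by 0.29 (SE 0.17) without overlap, at a low level of 5.49 to 6.13 over the 9 libraries. Nqo1, a quinone reductase widely used as a reporter of NRF2 activity, stood at 9.39, 8.98 and 9.07 in the primed libraries, 9.08, 8.86 and 9.15 in the non-primed libraries and 9.68, 9.03 and 8.90 in the naive libraries. Its groups overlapped and the difference was 0.12 (SE 0.21), with a 95% interval of -0.35 to 0.59. Blvrb, which reduces biliverdin, differed by 0.15 (SE 0.20), and Abcc1, which exports glutathione conjugates, by 0.14 (SE 0.17), both with overlap.

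**Figure D3:**
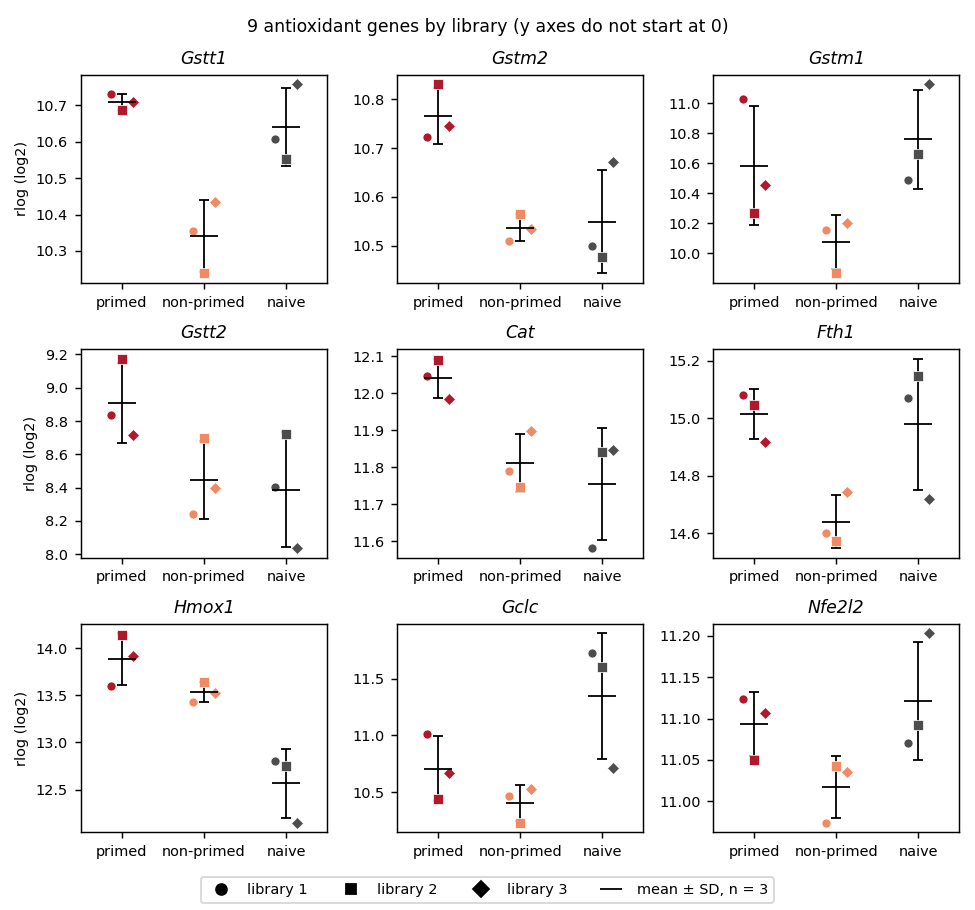
Each panel shows a gene, with 3 libraries a group as points on the rlog (log2) axis and a line and bar for the mean ± SD of each group. The primed points of Gstt1, Gstm2, Gstm1, Gstt2, Cat, Fth1 and Nfe2l2 lie above all non-primed points, and those of Hmox1 and Gclc overlap them. The naive mean is the lowest of the 3 for Hmox1 and the highest for Gclc.

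The superoxide dismutases remove superoxide and catalase removes hydrogen peroxide. All 4 of these genes were higher in primed cultures, 3 of them without overlap. Cat, catalase, which splits hydrogen peroxide (ENSMUSG00000027187, GRCm38 chromosome 2, 103453849 to 103485160, minus strand), stood at 12.05, 12.09 and 11.98 in the primed libraries, 11.79, 11.75 and 11.90 in the non-primed libraries and 11.58, 11.84 and 11.85 in the naive libraries. All primed values exceeded all 6 others, and the difference was 0.23 (SE 0.09) with an unadjusted p of 0.0328. Sod1, the cytosolic dismutase, stood at 12.09, 11.98 and 12.01 in the primed libraries, 11.88, 11.89 and 11.90 in the non-primed libraries and 12.08, 11.93 and 12.13 in the naive libraries. The non-primed values were the lowest of the 9 libraries, and the difference from primed cultures was 0.14 (SE 0.07). Sod3, the secreted dismutase of the matrix, differed by 0.24 (SE 0.40) without overlap. Its naive values ran between 10.21 and 12.00, with an SD of 1.02, against 0.04 in primed and 0.08 in non-primed libraries. The SE thus reflects mainly the naive spread. Sod2, the mitochondrial enzyme, differed by 0.07 (SE 0.12) with overlap.

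All 5 glutathione peroxidase genes were higher in primed cultures, 2 of them without overlap. Gpx4, which reduces peroxides in membrane lipids, differed by 0.20 (SE 0.12), and Gpx3, the secreted form, by 0.34 (SE 0.38), both without overlap. Gpx1, the main cytosolic form, stood at 12.32, 12.79 and 12.51 in the primed libraries, 12.24, 12.54 and 12.32 in the non-primed libraries and 12.23, 12.09 and 12.20 in the naive libraries, at a difference of 0.17 (SE 0.13) with overlap. Gpx7, a peroxidase of the endoplasmic reticulum, stood at 10.97, 11.24 and 11.24 in the primed libraries, 11.03, 11.09 and 11.08 in the non-primed libraries and 10.71, 11.06 and 10.19 in the naive libraries, and Gpx8, another of that compartment, differed by 0.02 (SE 0.10).

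The thioredoxin and peroxiredoxin genes had small differences, with a median of 0.05. Of the 9 genes, 7 were higher in primed cultures. Beside 7.91% of all genes with a mean of at least 9, 1 of the 9 (11.1%) lay above without overlap. That gene was Srxn1, sulfiredoxin, which repairs overoxidized peroxiredoxins. It stood at 11.38, 11.41 and 11.34 in the primed libraries, 11.21, 11.16 and 11.30 in the non-primed libraries and 11.37, 11.24 and 11.32 in the naive libraries, at a difference of 0.15 (SE 0.07). Txnrd1, the reductase that recharges thioredoxin, stood at 11.56, 11.31 and 11.32 in the primed libraries, 11.12, 11.33 and 11.07 in the non-primed libraries and 11.46, 10.97 and 11.34 in the naive libraries. Its groups overlapped narrowly, and the difference was 0.22 (SE 0.14). Txn1, thioredoxin itself, was at -0.02 (SE 0.08), and the 6 peroxiredoxin genes lay between -0.0024 for Prdx3 and 0.10 for Prdx6.

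Glutathione supply showed no common direction, with 3 of 5 genes higher and none without overlap. Slc7a11, the cystine importer, stood at 8.18, 7.35 and 8.07 in the primed libraries, 7.91, 7.86 and 8.15 in the non-primed libraries and 8.27, 7.55 and 7.92 in the naive libraries, primed 2 being the lowest of all, at a difference of -0.11 (SE 0.25). Gclm, the modifier subunit of the enzyme that commits glutamate and cysteine to glutathione, stood at 9.41, 9.72 and 9.55 in the primed libraries, 9.37, 9.42 and 9.66 in the non-primed libraries and 9.63, 9.44 and 9.61 in the naive libraries. Its difference was 0.08 (SE 0.12), with a 95% interval of -0.19 to 0.34. Gclc, the catalytic subunit of the same enzyme, was 0.30 (SE 0.26) higher, Gss, glutathione synthetase, 0.05 (SE 0.09), and Gsr, the reductase that recycles glutathione, was at -0.02 (SE 0.25).

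The regulators themselves differed little. Nfe2l2 (ENSMUSG00000015839, GRCm38 chromosome 2, 75675513 to 75704641, minus strand) stood at 11.12, 11.05 and 11.11 in the primed libraries, 10.97, 11.04 and 11.04 in the non-primed libraries and 11.07, 11.09 and 11.20 in the naive libraries. The primed values lay just above the non-primed ones, and the difference was 0.08 (SE 0.07) with a 95% interval of -0.07 to 0.23. Keap1 (ENSMUSG00000003308, GRCm38 chromosome 9, 21229730 to 21239361, minus strand) stood at 10.95, 10.95 and 10.90 in the primed libraries, 10.92, 10.82 and 10.93 in the non-primed libraries and 10.92, 10.84 and 11.00 in the naive libraries, with overlap and a difference of 0.05 (SE 0.07). NRF2 is regulated mainly through protein stability, which transcript levels do not measure. Of the 8 genes with the motif, 5 (Gstm5, Mgst1, Nfe2l2, Sod1 and Srxn1) had primed libraries above all non-primed ones, as had 9 of the 26 with a window and no match.

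**Figure D4:**
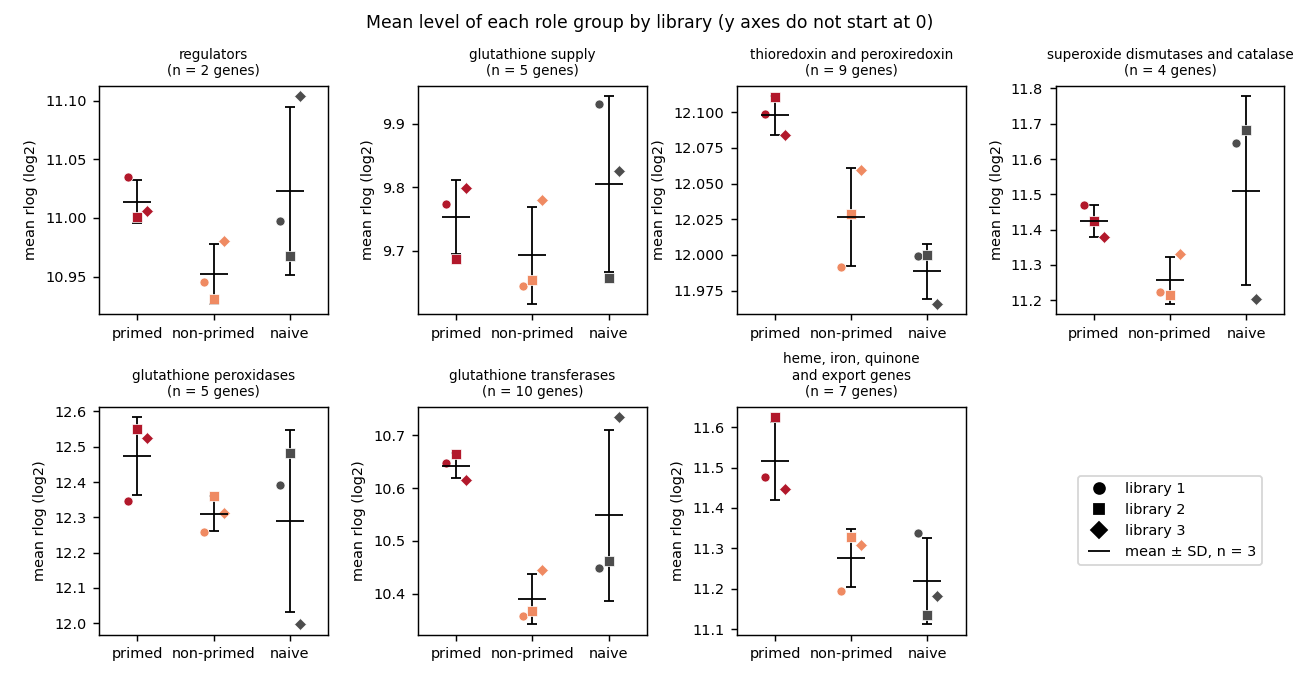
Each panel gives the mean rlog (log2) of a role group in each library, as points, with the mean ± SD of each group of 3 libraries. The primed points lie above all non-primed points for regulators, thioredoxin and peroxiredoxin, dismutases and catalase, transferases, and the heme and iron group. They overlap for glutathione supply and for the peroxidases.

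The primed against non-primed counts did not rest on a single library. With each of the 9 libraries left out in turn, 35 to 38 of the 42 genes were higher and 16 to 23 lay above without overlap. Leaving out a library makes overlap rarer in general: of all tested genes, 6.3% to 14.6% then lay above. Limma with sample weights, which lets libraries near their group count for more, was the only alternative in which members passed in this comparison. There 19 of the 42 (45.2%) passed, all higher in primed cultures, while 5.66% of all genes passed as higher and 7.84% as lower. Non-primed 1 with a weight of 10.4 and primed 3 with 7.29 had the highest weights, against 0.133 to 1.65 for the other 7 libraries. The weighted calls therefore rest largely on these 2 libraries, and 13.5% of all genes passed there, against 0% in the main fit.

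Markers of other cells and states also stood at unlike levels in these groups, none of them past the test. Of the 14 macrophage markers, 12 were higher in primed than in non-primed cultures, by a median of 0.21 and all with overlap. Their summed level, as log2, was 15.62 to 16.85 in primed, 15.84 to 16.34 in non-primed and 13.12 to 15.80 in naive libraries, and no marker was at 0. Such sums follow mostly the markers with the highest values, Lyz2 for macrophages and Plin4 for adipocytes. With the macrophage mean of each library as a covariate, 39 of the 42 genes were higher in primed cultures, by a median of 0.15. All 6 tested of the 8 adipocyte markers were higher in primed cultures, with a summed level of 11.49 to 12.34 in primed, 11.52 to 11.80 in non-primed and 11.60 to 12.38 in naive libraries, and Lep at 0 throughout. All 8 cell division genes were lower in primed cultures, with a summed level of 13.15 to 13.35 in primed, 13.23 to 13.91 in non-primed and 12.04 to 13.81 in naive libraries. All 5 tested of the 6 Schwann cell and nerve markers were lower in primed cultures, by a median of -0.33 and with overlap. Their summed level was 11.26 to 12.29 in primed, 11.63 to 12.18 in non-primed and 11.57 to 12.08 in naive libraries. The covariate fit is a description, and the part of macrophages, adipocytes, Schwann cells and cell division in the antioxidant difference was not tested.

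Other genes of these pathways were also mostly higher in primed cultures. Of 100 further genes of the NRF2, glutathione, thioredoxin, NADPH, oxidase and selenoprotein lists, 90 were tested and 65 (72.2%) were higher in primed cultures, beside 50.3% of all genes. In 15 of the 90 (16.7%) the primed libraries lay above the non-primed ones without overlap and in 0 below, beside 6.31% above and 5.25% below over all genes. None passed in limma (0 of 90), and 4 (4.44%) had an unadjusted p below 0.05, beside 1.26% of all genes. Gstm6 and Gstt3, given above, had the smallest p-values. Oplah, which opens 5-oxoproline in glutathione turnover, stood at 11.02, 10.91 and 10.93 in the primed libraries, 10.74, 10.73 and 10.71 in the non-primed libraries and 11.04, 11.36 and 11.20 in the naive libraries, at a difference of 0.23 (SE 0.09). Cbr1, a carbonyl reductase, stood at 10.09, 10.13 and 10.08 in the primed libraries, 9.88, 9.85 and 9.87 in the non-primed libraries and 9.97, 9.85 and 9.64 in the naive libraries, at 0.23 (SE 0.09). The 10 genes of NADPH supply, which powers both glutathione and thioredoxin recycling, were higher in 9 cases. G6pdx, the entry enzyme of the pentose phosphate pathway, was 1 of 3 without overlap there, at 0.24 (SE 0.20), and was chosen after its value was seen. The 9 genes of selenoprotein supply were higher in 4 cases.

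Against naive cultures the 42 genes split into higher and lower ones. These comparisons share the naive libraries with each other, and each shares its injected libraries with the comparison of primed and non-primed cultures. In non-primed cultures 18 of the 42 (42.9%) were higher than in naive, where 51.7% of all genes were and 56.3% of those with a mean of at least 9, and the median was -0.04. None of the 42 passed in limma (0 of 42), where 0.141% of all genes did, 0.115% higher and 0.0256% lower. At an unadjusted p below 0.05 stood 2 higher and 5 lower genes, beside 15.4% of all genes, 8.58% higher and 6.84% lower. Without overlap, 2 lay above and 6 below, beside 11.6% and 10.3% of all genes, and 13.2% above among those with a mean of at least 9. In primed cultures 26 of the 42 (61.9%) were higher than in naive, where 49.8% of all genes were and 54.2% of those with a mean of at least 9, and the median was 0.05. Again 0 of 42 passed in limma, where 0.102% of all genes did, 0.096% higher and 0.0064% lower. At an unadjusted p below 0.05 stood 10 higher and 1 lower, beside 16.9% of all genes, 9.43% higher and 7.43% lower. Without overlap, 8 lay above and 0 below, beside 8.97% and 8.18% of all genes, and 11.4% above among those with a mean of at least 9. With sample weights 4 of the 42 passed against naive in primed cultures (Hmox1 and Gpx7 higher, Gclc and Sod3 lower), where 4.69% of all genes did, 2.5% higher and 2.19% lower. In non-primed cultures 4 passed with weights (Hmox1 higher, Gclc, Sod3 and Gpx3 lower), where 3.97% did, 2.15% higher and 1.82% lower. Any difference among the 3 groups was called by limma's moderated F statistic for 0 of the 42 and for 0.0704% of all genes.

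Hmox1 stood above naive in both injected groups. It averaged 13.88 ± 0.27 in primed, 13.53 ± 0.11 in non-primed and 12.57 ± 0.36 in naive cultures (SD, n = 3 each), and all 6 injected libraries lay above all 3 naive ones. The difference from naive was 1.32 (SE 0.19) in primed cultures, at a limma adjusted p of 0.0664, and 0.97 (SE 0.19) in non-primed cultures, at a limma adjusted p of 0.0933. The primed difference passed without primed 1 (adjusted p = 0.0391), naive 1 (adjusted p = 0.0497), naive 2 (adjusted p = 0.0186) or naive 3 (adjusted p = 0.0273), and not without the other libraries.

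Macrophages also express Hmox1, and their markers were higher in injected cultures. All 14 macrophage markers were higher than naive in primed and in non-primed cultures, at medians of 2.01 and 1.85. With the macrophage covariate the Hmox1 difference from naive was 1.00 (SE 0.26) in primed and 0.68 (SE 0.25) in non-primed cultures. The covariate, the macrophage marker mean, was 7.77, 9.90 and 7.43 in the naive libraries and 9.68 to 10.91 in the injected ones. It mostly followed injection, so macrophage content and injection cannot be told apart in this fit. Adipocyte markers were lower than naive for 5 of 6 in primed and 6 of 6 in non-primed cultures, and the 4 tested skeletal muscle markers were higher without overlap in non-primed cultures. Schwann cell and nerve markers were higher than naive for 3 of 5 in primed and 4 of 5 in non-primed cultures, at medians of 0.30 and 0.68. Cell division genes were higher for 7 of 8 in primed and 8 of 8 in non-primed cultures, at medians of 0.11 and 0.39. That direction rests on naive 2, whose mean over these genes was 8.16. Naive 1 and naive 3 stood at 9.61 and 9.88, above all primed libraries at 9.20 to 9.46 and within the non-primed range of 9.32 to 9.94. The part of macrophages, of fat, muscle and Schwann cells and of cell division in these differences was not tested. Naive 2 had a macrophage summed level of 15.80, above primed 3 at 15.62. The mean over the 14 markers was also higher in naive 2, at 9.90, than in primed 3, at 9.68, with Cd68, Trem2, Aif1 and C1qb the other way. Hmox1 stood at 12.75 in naive 2 and at 13.91 in primed 3. Naive 1 and naive 3 had the lowest macrophage levels, 13.47 and 13.12, with Hmox1 at 12.80 and 12.15. Primed 2 was highest for both, at 16.85 and 14.14.

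**Figure D5:**
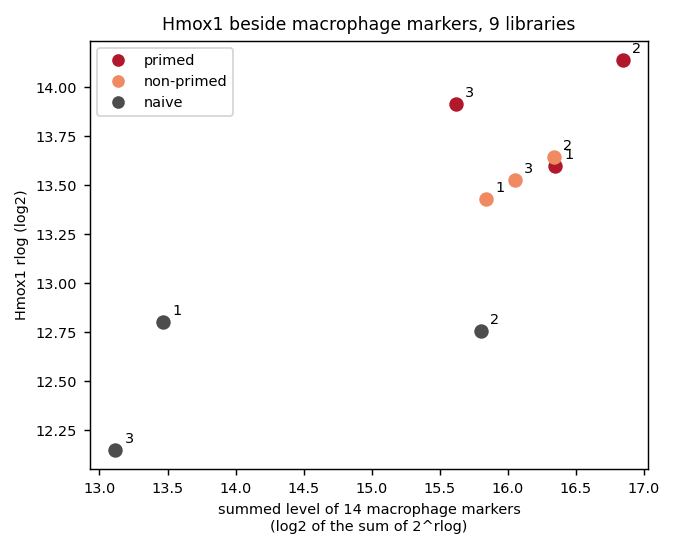
Each point is a library, numbered within its group, with the summed level of 14 macrophage markers (log2 of the sum of the unlogged values) across and the Hmox1 rlog (log2) up. The 6 injected libraries stand at 13.43 to 14.14 for Hmox1 and the naive ones at 12.15 to 12.80. Naive 2 lies near the injected libraries across and near the naive ones up. Naive 1 and naive 3 are the lowest across, and primed 2 is the highest both ways.

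Gclc, the catalytic subunit that sets the pace of glutathione synthesis (ENSMUSG00000032350, GRCm38 chromosome 9, 77754535 to 77794485, plus strand), was lower than naive in both injected groups. It stood at 11.01, 10.44 and 10.67 in the primed libraries, 10.47, 10.23 and 10.53 in the non-primed libraries and 11.73, 11.60 and 10.71 in the naive libraries. All non-primed values lay below all naive ones, while primed 1 lay above naive 3. The difference from naive was -0.64 (SE 0.26) in primed and -0.94 (SE 0.26) in non-primed cultures, at limma adjusted p-values of 0.266 and 0.165. Naive 3 was near the injected libraries, and without it the differences were -0.95 and -1.25, past the threshold at limma adjusted p-values of 0.0459 and 0.0201. Naive 3 was the library furthest from the other naive ones in Gclc, so passing rests on leaving it out. Without naive 3, more of all genes also had an unadjusted limma p below 0.05 against naive. They numbered 3418 against 2635 with all libraries in primed cultures, and 3520 against 2410 in non-primed cultures. Sod3 and Gpx3, the secreted enzymes, depended on the same library. Naive 3 was also the naive library lowest in adipocyte markers, with a summed level of 11.60, against 12.36 in naive 1 and 12.38 in naive 2. Primed 1, the injected library highest in Gclc, had 12.34, a sum that follows mostly Plin4, at 11.84 there. As a mean of the 6 tested adipocyte markers, primed 1 stood at 7.86, against 8.86, 8.97 and 6.85 in naive 1, naive 2 and naive 3. The part of fat cells in the levels of Gclc, Sod3 and Gpx3 was not tested. Sod3 stood at 10.88, 10.96 and 10.91 in the primed libraries, 10.58, 10.71 and 10.74 in the non-primed libraries and 11.95, 12.00 and 10.21 in the naive libraries, so naive 3 was the lowest and naive 1 and naive 2 the highest of the 9. Without naive 3, Sod3 was 1.06 lower than naive in primed cultures (limma adjusted p = 0.00371) and 1.30 lower in non-primed cultures (limma adjusted p = 0.00128). Gpx3 stood at 12.72, 12.95 and 12.97 in the primed libraries, 12.42, 12.66 and 12.53 in the non-primed libraries and 13.32, 13.76 and 11.96 in the naive libraries, and without naive 3 it was 1.00 lower than naive in non-primed cultures (limma adjusted p = 0.0258).

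For Gstt1, Gstm1, Gstm5 and Fth1 the non-primed mean lay below the naive mean. Against naive, Gstt1 differed by 0.07 (SE 0.08) in primed and -0.30 (SE 0.08) in non-primed cultures. Gstm1 differed by -0.18 (SE 0.22) and -0.69 (SE 0.22), Gstm5 by -0.13 (SE 0.10) and -0.30 (SE 0.10), and Fth1 by 0.04 (SE 0.14) and -0.34 (SE 0.14), in the same order. For Gstt1, Gstm1 and Gstm5 all non-primed values lay below all naive ones. Other members had primed values above naive. Cat differed from naive by 0.28 (SE 0.09) in primed and 0.06 (SE 0.09) in non-primed cultures, Gstm2 by 0.22 (SE 0.08) and -0.01 (SE 0.08), Gsta4 by 0.38 (SE 0.12) and 0.17 (SE 0.12), and Gpx1 by 0.37 (SE 0.13) and 0.19 (SE 0.13). For these 4 genes all primed values lay above all naive ones.

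Prdx1, a cytosolic peroxiredoxin, stood at 14.22, 13.99 and 14.04 in the primed libraries, 14.04, 13.89 and 14.25 in the non-primed libraries and 13.70, 13.96 and 13.35 in the naive libraries. It differed from naive by 0.41 (SE 0.17) in primed and 0.39 (SE 0.17) in non-primed cultures, and naive 3 was the lowest library. Gpx7 differed by 0.50 (SE 0.19) and 0.41 (SE 0.19), Ftl1 by 0.48 (SE 0.17) and 0.22 (SE 0.17), Gstt2 by 0.52 (SE 0.20) and 0.06 (SE 0.20), and Prdx2 by 0.25 (SE 0.10) and 0.18 (SE 0.10), in the same order. With the macrophage covariate the primed difference of Gstt2 was -0.01 (SE 0.18).

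Genes that make oxidants stood above naive in both injected groups for 7 of the 9 tested, as did the macrophage markers. At an unadjusted p below 0.05 stood 5 higher and 0 lower in primed cultures, beside 9.43% and 7.43% of all genes. In non-primed cultures 5 stood higher and 1 lower at that level, beside 8.58% and 6.84% of all genes, and 0 passed in limma in either. Ncf1, a subunit of the phagocyte oxidase, was 1.90 (SE 0.55) above naive in primed and 1.73 (SE 0.55) in non-primed cultures. Xdh, xanthine dehydrogenase, the enzyme that makes urate, was 0.43 (SE 0.11) above naive in primed and 0.28 (SE 0.11) in non-primed cultures, without overlap in either. Aox1, aldehyde oxidase, was at -0.31 (SE 0.18) and -0.72 (SE 0.18), Oplah at -0.25 (SE 0.09) and -0.47 (SE 0.09), and Abcc3, a conjugate exporter, at 1.52 (SE 0.39) and 1.35 (SE 0.39). Their part in the levels of the antioxidant genes was not tested.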

How the data were processed

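RNA was measured in 9 libraries with a stranded mRNA kit, per the labels' protocols. Per the submitters' processing notes, cutadapt 2.5, STAR 2.5.4a, Subread 1.6.1 with featureCounts and DESeq2 were used on GRCm38. The annotation release, the strand setting and the rlog settings stay unknown, no source used here giving them, so overlapping genes cannot be told apart. The authors deposited rlog values, on a log2 scale, for 47729 genes. The rlog corrects for depth and draws weakly expressed genes towards their mean, which understates their differences. No counts are used here, so precision rests on the spread of 3 libraries a group.

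Symbols were matched for 47224 identifiers. Coordinates are from GENCODE M21 (GRCm38). Varying genes with a mean rlog of 3 or more were tested, 15623 in all, with limma 3.58.1 in R 4.3.3: 1 mean per group over all 9 libraries, moderated variances with a trend, two-sided, 6 residual degrees of freedom. An exact test of 3 against 3 libraries cannot go below p = 0.1, so groups without overlap are counted as a description. The fit was tested on simulated data.

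The members, lists and tests were chosen with earlier results of these data known. Members are described with each library's value if they were among the 8 smallest p-values of a comparison or fixed by name (Nfe2l2, Keap1, Nqo1, Hmox1, Gclm, Slc7a11 and Txnrd1), and Sod3 and Gpx3 were added after their values were seen. Of the other pathway genes, the 4 with the smallest p per comparison are named, except 1 that is not reported here. The values of Fth1, Ftl1, Prdx1, Gpx1, Gpx4, Sod1, Txn1 and the Gst genes are uncertain where close copies or pseudogenes share reads.

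By the series text, replicate numbers do not stand for particular mice. Deviations from the group mean correlated across genes at 0.418, 0.608 and 0.100 for primed and non-primed libraries of numbers 1, 2 and 3, each above 0.1, the last barely, so these groups were treated as possibly paired in an alternative fit. The naive libraries did not meet that rule. The alternatives were other filters, no variance trend, only the groups compared, sample weights, 2 scalings, the block, a macrophage covariate and each library left out.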

Additional observations from a re-analysis of the deposited data

How the results depend on the processing

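The direction between primed and non-primed cultures held in every alternative run, with 35 to 38 of 42 genes higher and a median of 0.12 to 0.17 when a library was left out. Calls against naive depended on the settings, and the cause was not tested. Reversals were looked for among the 8 genes with the smallest p-values of each comparison. There only Gstt2 between primed and naive cultures was reversed, to -0.0102 with the macrophage covariate. Members with small differences between primed and non-primed cultures also changed sign, in both directions. With sample weights Slc7a11 went from -0.11 to 0.09 and Keap1 from 0.05 to -0.0026. Without counts, depth limits cannot be given.

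With sample weights, genes past the threshold numbered 2109 between primed and non-primed, 621 between non-primed and naive and 733 between primed and naive cultures. The antioxidant genes among them numbered 19, 4 and 4, the other pathway genes 17, 5 and 3, and 19 antioxidant genes passed for any difference. The share of all genes that passed for any difference with weights was not computed. Over all genes, 22 passed between non-primed and naive cultures in the main analysis, against 0 with no filter on low values, 13 with a mean of at least 6, 5 with no variance trend, 7 with only the 2 groups compared, and 1 with the macrophage covariate. Between primed and naive cultures 16 passed, against 0 with no filter, 0 with no variance trend, 0 with only the 2 groups and 1 with the covariate. With replicate number as a block, 51 genes passed between primed and naive cultures. With the block and only the 2 groups compared, 0 passed between primed and naive and 0 between non-primed and naive. The block changed no call of an antioxidant gene: between primed and non-primed cultures 0 of the 42 passed with it.

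The median of the antioxidant genes against naive became 0.0045 in non-primed and 0.13 in primed cultures with the covariate, and 0.0097 in primed cultures after quantile normalization. After that normalization 1 gene lay above naive without overlap in non-primed cultures.

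With each library left out in turn, between 0 and 355 genes passed between non-primed and naive cultures, and between 0 and 356 between primed and naive. The antioxidant genes that passed numbered 0 to 3 in both and 0 to 3 for any difference, and the other pathway genes 0 to 5 in non-primed and 0 to 4 in primed cultures. The median against naive ran from -0.0889 to 0.0084 in non-primed and from 0.0279 to 0.0992 in primed cultures. Without overlap, 2 to 9 lay above and 6 to 10 below naive in non-primed cultures, and 8 to 13 above and 0 to 4 below in primed cultures. In the same runs 11.6% to 22.6% of all genes lay above naive in non-primed and 8.95% to 17.4% in primed cultures. Between primed and non-primed cultures, 0 to 1 lay below. Shares of all genes lying below were not computed in these runs. With all libraries they were 10.3% for non-primed against naive, 8.18% for primed against naive and 5.25% for primed against non-primed cultures.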

Other observations

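The libraries at the extremes of the 42 genes were not spread as over all genes. A primed library held the highest of the 9 values for 18 of the 42 genes (42.9%), a non-primed library for 1 (2.38%) and a naive library for 23 (54.8%), where over all tested genes the shares were 26.7%, 17% and 56.3%. The lowest value was in a primed library for 2 genes (4.76%), in a non-primed library for 17 (40.5%) and in a naive library for 23 (54.8%), against 27.2%, 15.8% and 57% over all genes. These shares use the same values as the comparisons above and are a description. Primed 2 alone held the highest value for 15 of the 42 (35.7%), against 16.4% of all genes.

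Single libraries stood far from the rest for a few genes, named after their values were seen. Gsto1, the omega-class transferase, was at 10.98 in naive 3 and at 8.91 to 9.53 in the other 8 libraries. Prdx4, the peroxiredoxin of the endoplasmic reticulum, was at 13.17 in naive 2 and at 12.31 to 12.57 in the others. Ces1d, a carboxylesterase of the other pathway genes, was at 9.17 in naive 2, 6.23 in naive 3 and 4.91 in naive 1, against 3.93 to 4.79 in primed and 3.69 to 4.25 in non-primed libraries. Naive 3 held the highest value for 13 of the 42 genes and the lowest for 10.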
